A study of Mus musculus with 18 samples.

Results

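The phagocyte NADPH oxidase and its companion proton channel were followed through 6 genes, Cybb, Cyba, Ncf1, Ncf4, Rac2 and Hvcn1, out of 25651 genes in the deposited count table. They were taken by gene symbol. Cybb, Cyba, Ncf1 and Rac2 belong to the set by function, whereas Ncf4 and Hvcn1 were picked because their counts were higher in KPC than in wild-type pancreas. For those 2 genes the values in every comparison are therefore a description, with no test.

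Messenger RNA was counted in snap-frozen pancreas of 5 mice labelled KPC ASC KO, 7 mice labelled KPC and 6 wild-type (WT) mice, each library from 1 mouse. All were 20 weeks old and of mixed 129Sv and C57BL/6 descent. Mice called KPC are widely used to model pancreatic ductal tumours, and ASC is the inflammasome adaptor encoded by Pycard. The labels name neither the alleles, the Cre driver nor the part of Pycard removed, and they give no sex, litter, batch or histology. Within the KPC background, KPC ASC KO differs from KPC by the loss of ASC as far as the labels say.

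The oxidase moves electrons from NADPH in the cytosol across a membrane to oxygen, which makes superoxide in the phagosome or outside the cell. The catalytic subunit encoded by Cybb sits in the membrane with its stabilising partner, encoded by Cyba. On activation cytosolic subunits, among them the organiser (Ncf1) and the phosphoinositide-binding subunit (Ncf4), join them with a Rac GTPase, which in blood cells is mostly Rac2. Electron transfer leaves positive charge behind in the cytosol, and the voltage-gated proton channel encoded by Hvcn1 carries protons out and so sustains the enzyme. Neutrophils and macrophages are the best-known sites of the oxidase. B cells also express its subunits, and Hvcn1 is abundant in them. Inherited loss of an oxidase subunit causes chronic granulomatous disease in people.

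RefSeq start regions (build GRCm38.p6) were at hand for 3 of the 6 genes, the membrane pair and the organiser. The 250 bases before each annotated start are shown for these 3. Whether the windows bear on the counts was not tested. Capitals mark matches, on either strand, to the core of interferon response elements (GAAA, any 2 bases, GAAA), or to GGGCGG, the GC box. The Cybb window is chrX:9469325-9469574, the Cyba window chr8:122432941-122433190 and the Ncf1 window chr5:134229626-134229875, all on the minus strand and written 5′ to 3′. The RefSeq start of Cybb lies inside the longer span that the deposited table gives for the gene.
Cybb: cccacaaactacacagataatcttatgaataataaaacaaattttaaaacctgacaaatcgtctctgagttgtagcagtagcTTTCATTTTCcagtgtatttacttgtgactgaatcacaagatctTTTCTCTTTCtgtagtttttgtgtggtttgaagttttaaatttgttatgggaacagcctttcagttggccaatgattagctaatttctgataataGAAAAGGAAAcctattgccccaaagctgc
Cyba: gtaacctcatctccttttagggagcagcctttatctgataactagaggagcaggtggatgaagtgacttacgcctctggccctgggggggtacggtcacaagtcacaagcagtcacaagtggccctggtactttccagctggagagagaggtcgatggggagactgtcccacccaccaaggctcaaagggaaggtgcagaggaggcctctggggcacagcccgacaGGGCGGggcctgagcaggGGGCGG
Ncf1: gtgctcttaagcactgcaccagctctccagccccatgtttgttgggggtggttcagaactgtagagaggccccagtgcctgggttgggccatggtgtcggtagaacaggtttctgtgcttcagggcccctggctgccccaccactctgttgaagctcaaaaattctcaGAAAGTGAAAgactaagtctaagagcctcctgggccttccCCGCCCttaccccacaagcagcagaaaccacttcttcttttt

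The Cybb window held 3 matches to the interferon element core, whose first printed bases lay at -168, -124 and -29 from the start, and no GC box. The Ncf1 window held 1 match to the interferon element core at -82 and 1 GC box at -42. The Cyba window held 2 GC boxes, at -24 and -6. The 3 windows thus differ in make-up, with 34.0% G and C for Cybb, 60.0% for Cyba and 54.4% for Ncf1, against a mean of 53.2% over 32841 such windows in the table. Of those 32841 windows, 2.98% held the interferon element core and 32.7% held the GC box. The letters GAGGAA, the core recognised by the myeloid and B cell factor PU.1, was in none of the 3 windows and in 23.3% of all. In Cybb its reverse, TTCCTC, begins at base 10 after the start, outside the window. No overlap occurred between matches of different motifs. These are matches of letters and not measured binding sites.

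Library totals ran from 374432 to 647947 counts in KPC ASC KO, 452472 to 1626977 in KPC and 294077 to 416879 in WT mice, so single genes rest on few counts in many libraries. Values are CPM, the counts of a gene per megacount of its library, after scaling by trimmed mean of M values (TMM), a method that aligns the bulk of genes between libraries. Pycard, the targeted gene, stood at 19.9 ± 11.7 CPM (SD, n = 5) in KPC ASC KO and 70.0 ± 24.2 CPM (SD, n = 7) in KPC mice, with no overlap. Which part of the gene was removed is not stated, so its remaining counts cannot be placed. The 12 acinar markers, which define the labelled tissue, were present in all 3 groups and summed to 105500 to 390000 CPM in KPC ASC KO, 8684 to 159600 CPM in KPC and 223800 to 417200 CPM in WT mice. TMM and total-count scaling differed widely here: the median log2 fold change over all genes for KPC against WT was 0.06 with TMM and 1.41 with total counts.

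In KPC pancreas the 4 genes chosen by function all rose against WT. Cybb and Ncf1 passed the filter on low counts only through the KPC libraries. For these 2 the rise, and the difference of KPC ASC KO from KPC, are therefore a description. In KPC ASC KO pancreas all 6 were lower on average than in KPC, but none of the 4 tested genes passed the test. Nor did any of the 4 pass between KPC ASC KO and WT. Between bulk samples, a change in the number of cells that express a gene cannot be told from a change in RNA per cell.

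**Figure D1:**
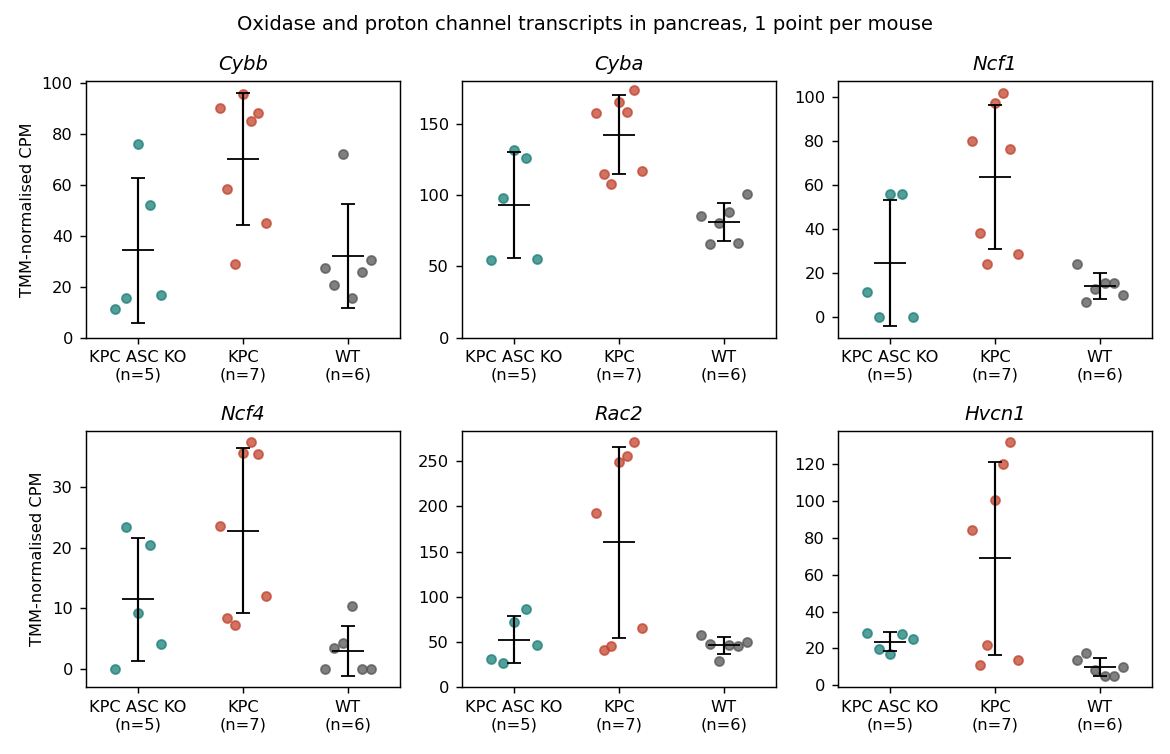
Normalised CPM (vertical axes, linear) of the 6 genes in each mouse, grouped as KPC ASC KO, KPC and WT; points are mice, horizontal marks are means and bars are the SD. Cyba and Ncf1 have no overlap between the 7 KPC and the 6 WT mice, and the KPC mice spread widely for Rac2, from 41.4 to 271 CPM, and for Hvcn1, from 11.2 to 132 CPM.

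Cybb (ENSMUSG00000015340, chromosome X, 9435252 to 9487771 on the minus strand of GRCm38) encodes the catalytic subunit that passes electrons to oxygen. It stood at 11.4, 15.6, 16.9, 51.9 and 76.1 CPM in the KPC ASC KO mice. In KPC mice it ran from 28.8 through a median of 85.1 to 95.6 CPM. In WT mice it ran from 15.5 through a median of 26.4 to 72.1 CPM. The groups overlapped: KPC ASC KO mice 377 and 384 reached the KPC range, and WT mouse 1202 was far above the other WT mice, at 72.1 against 30.3 CPM or less. Cybb rose in KPC against WT by a log2 fold change of 1.15 (SE 0.42, adjusted p = 0.0409 in edgeR), with 6 of 7 KPC mice above the WT mean. Cybb passed the filter on low counts only through the KPC libraries, where it is high, so this call is a description. The call depended on single mice: it was lost without WT mouse 69, at an adjusted p of 0.0876, 1197 (0.0959), 1213 (0.0916), 1237 (0.0807) or 1238 (0.074). It was also lost without KPC mouse 40 (0.0631), 89 (0.0649), 145 (0.0579) or 154 (0.0589), and with no filter on low counts (1.31, 0.0643). KPC ASC KO minus KPC gave -0.92 (SE 0.40, adjusted p = 0.145), with 4 of 5 KPC ASC KO mice below the KPC mean. It passed without KPC ASC KO mouse 377 (-1.41, adjusted p = 0.0377). That mouse was the highest of its group, so leaving it out was bound to widen the difference. Because of the filter, these values against KPC are a description too. Against WT, the KPC ASC KO difference was 0.23 (SE 0.48, adjusted p = 0.913), and it was -0.29 without mouse 377.

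Cyba (ENSMUSG00000006519, chromosome 8, 122424776 to 122432930, minus strand) encodes the small membrane partner without which the Cybb protein is unstable. It also serves other NADPH oxidases and is expressed outside the leukocyte lineage. It stood at 54.1, 54.9, 97.7, 126 and 132 CPM in KPC ASC KO mice. KPC mice ran from 108 through a median of 157 to 174 CPM, and WT mice from 65.5 through 82.8 to 101 CPM. Every KPC mouse was above every WT mouse, and the KPC ASC KO mice spanned both ranges. Cyba had the smallest rise of the 6 in KPC against WT and the smallest SE, with a log2 fold change of 0.82 (SE 0.22, adjusted p = 0.00654). In KPC ASC KO pancreas Cyba differed from KPC by -0.59 (SE 0.22, adjusted p = 0.0827), with 5 of 5 KPC ASC KO mice below the KPC mean. It passed without KPC mouse 43 (-0.66, adjusted p = 0.0494), without KPC mouse 48 (-0.63, 0.0486) and without KPC ASC KO mouse 377 (-0.73, 0.0463). Mice 43 and 48 were the lowest KPC mice in Cyba, and 377 was the highest KPC ASC KO mouse. Leaving out any of them was bound to widen the difference. Against WT, KPC ASC KO gave 0.23 (SE 0.24, adjusted p = 0.796). The locus overlaps over 8155 bases, its whole length, with Gm20388 on the other strand, which the deposited table does not hold.

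Ncf1 (ENSMUSG00000015950, chromosome 5, 134220053 to 134229625, minus strand) encodes the organiser, whose phosphorylation starts the assembly of the enzyme. It was listed at 0 counts in KPC ASC KO mice 335 and 388, which allows up to 11.7 and 12.7 CPM, at 11.4 CPM in mouse 318 and at 55.7 and 55.6 CPM in mice 377 and 384. KPC mice ran from 24.0 through a median of 76.1 to 102 CPM. WT mice ran from 6.90 through 14.1 to 23.8 CPM, on only 2 to 7 counts each. The KPC and WT mice did not overlap, although the lowest KPC mouse, at 24.0 CPM, was next to the highest WT mouse. Ncf1 rose in KPC against WT by 2.19 on the log2 scale (SE 0.65, adjusted p = 0.0168), with 7 of 7 KPC mice above the WT mean. Ncf1 too passed the filter on low counts only through the KPC libraries. This call, and the comparison of KPC ASC KO with KPC, are therefore a description. KPC ASC KO differed from KPC by -1.17 (SE 0.55, adjusted p = 0.185), with 5 of 5 mice below the KPC mean, and from WT by 1.02 (SE 0.76, adjusted p = 0.673). The SD of 28.8 CPM among the KPC ASC KO mice exceeded their mean of 24.5 CPM. The 3′ end of the locus overlaps over 4303 bases with Gtf2ird2 on the other strand, which had 15 counts in KPC ASC KO, 103 in KPC and 8 in WT libraries, against 64, 696 and 20 for Ncf1. Whether the counting used strand is not given in the sources used here.

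Ncf4 (ENSMUSG00000071715, chromosome 15, 78244801 to 78262580, plus strand) encodes the subunit that binds phosphatidylinositol 3-phosphate on phagosomes. It was the least counted of the 6, with 23 counts over the KPC ASC KO libraries, 245 over the KPC and 4 over the WT libraries. It was listed at 0 in KPC ASC KO mouse 318, which allows up to 8.55 CPM, and stood at 4.22, 9.28, 20.4 and 23.4 CPM in the others. KPC mice ran from 7.20 through a median of 23.6 to 37.3 CPM. WT mice 69, 1237 and 1238 had 0 counts, which allows up to 10.2, 15.4 and 15.2 CPM, and the other 3 had 1 or 2 counts, at 3.45 to 10.3 CPM. Of the KPC mice, 5 of 7 were above every WT mouse. The log2 differences were 2.99 (SE 0.80) for KPC against WT, the comparison that chose the gene, -1.01 (SE 0.56) for KPC ASC KO against KPC and 1.98 (SE 0.99) for KPC ASC KO against WT. With 4 WT counts in all, the size of both differences against WT is poorly measured.

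Cybc1, the chaperone of the membrane pair, is not among the 6. It averaged 11.4 ± 6.09 CPM in KPC ASC KO (SD, n = 5), 25.3 ± 8.64 CPM in KPC (SD, n = 7) and 14.2 ± 12.1 CPM in WT mice (SD, n = 6), and did not pass for KPC against WT (0.81, SE 0.43, adjusted p = 0.154) or for KPC ASC KO against KPC (-1.05, SE 0.42, adjusted p = 0.114).

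Rac2 (ENSMUSG00000033220, chromosome 15, 78559167 to 78572783, minus strand) encodes the Rac GTPase of blood cells, which switches on the assembled oxidase and also drives actin remodelling. It stood at 27.4, 31.3, 46.4, 72.4 and 87.2 CPM in KPC ASC KO mice. KPC mice formed 3 at 41.4, 45.6 and 66.0 CPM and 4 at 193 to 271 CPM. WT mice ran from 29.7 through a median of 47.4 to 57.9 CPM, which covers 2 of the 3 low KPC mice. Rac2 rose in KPC against WT by 1.80 (SE 0.49, adjusted p = 0.0118), with 5 of 7 KPC mice above every WT mouse. Between KPC ASC KO and KPC mice the Rac2 difference was -1.55 (SE 0.49, adjusted p = 0.0532), with 5 of 5 KPC ASC KO mice below the KPC mean. It passed without KPC mouse 43 (-1.76, adjusted p = 0.0147), 48 (-1.69, 0.0177) or 210 (-1.70, 0.0301), without KPC ASC KO mouse 384 (-1.80, 0.0432), in DESeq2 (-1.59, 0.0141) and with a stricter minimum of 20 counts (-1.61, 0.0332). Mice 43, 48 and 210 were the lowest KPC mice in Rac2, and 384 was the highest KPC ASC KO mouse. Leaving out any of them was bound to widen the difference. Against WT, KPC ASC KO gave 0.24 (SE 0.57, adjusted p = 0.928), and -0.02 without mouse 384. Rac1, the widely expressed relative that can serve the oxidase too, averaged 115 ± 10.8 CPM in KPC ASC KO (SD, n = 5), 134 ± 13.9 CPM in KPC (SD, n = 7) and 89.9 ± 11.0 CPM in WT mice (SD, n = 6). It rose in KPC against WT by 0.57 (SE 0.14, adjusted p = 0.00485), with every KPC mouse above every WT mouse. KPC ASC KO differed from KPC by -0.23 in Rac1 (SE 0.14, adjusted p = 0.321).

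Hvcn1 (ENSMUSG00000064267, chromosome 5, 122206804 to 122242297, plus strand) encodes the proton channel. It stood at 16.7, 19.5, 25.3, 27.8 and 28.5 CPM in KPC ASC KO mice, the smallest spread relative to its mean among the 6 genes in that group, with a coefficient of variation of 22.1%. KPC mice had 11.2, 13.5 and 21.6 CPM in mice 43, 210 and 48, and 84.3 to 132 CPM in mice 40, 89, 145 and 154. WT mice ran from 5.13 through a median of 9.29 to 17.2 CPM, on 1 to 5 counts each. Thus 4 of 5 KPC ASC KO mice were above every WT mouse, and no KPC ASC KO mouse was below every KPC mouse. The log2 differences were 2.73 (SE 0.69) for KPC against WT, the comparison that chose the gene, -1.58 (SE 0.59) for KPC ASC KO against KPC and 1.15 (SE 0.84) for KPC ASC KO against WT. The 3′ end overlaps over 4450 bases with Tctn1 on the other strand, which had 6, 67 and 4 counts in KPC ASC KO, KPC and WT libraries, against 45, 731 and 15 for Hvcn1.

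**Figure D2:**
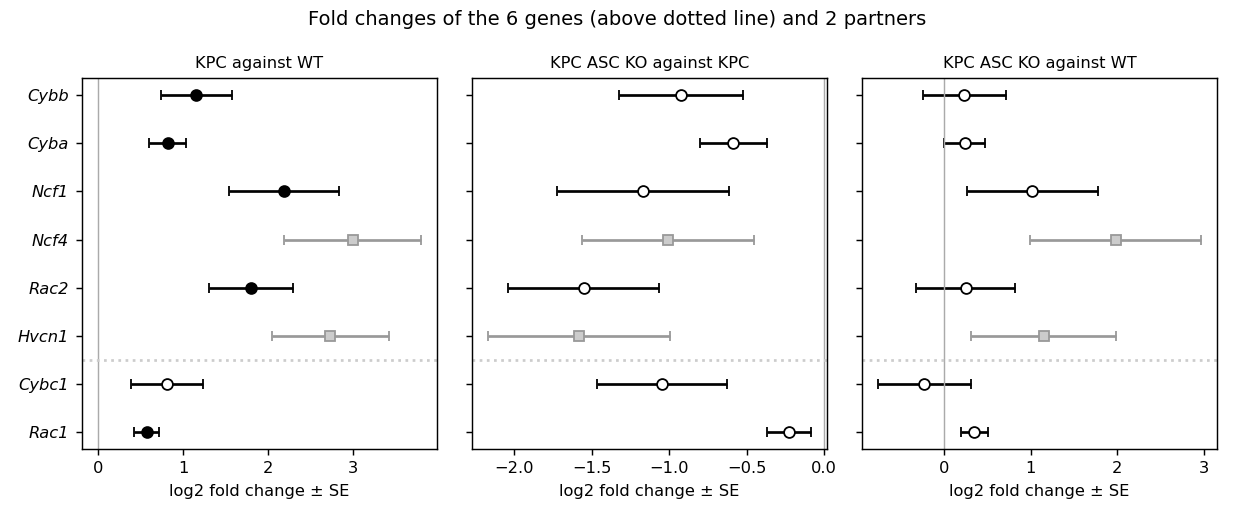
Log2 fold change (horizontal axis) with its SE for the 6 genes and, under the dotted line, 2 partners, in each comparison. Filled circles have an adjusted p under 0.05, open circles do not, and grey squares are the 2 genes picked for their values, which were not tested; the 4 tested genes are filled only for KPC against WT, where they run from 0.82 to 2.19.

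Against the whole table, 4 of the 4 genes chosen by function were called higher in KPC than in WT, where 14.8% of the 6920 genes tested were called higher, 15.1% lower and 29.9% in either direction. Cybb and Ncf1 passed the filter on low counts only through the KPC libraries: in a fit of the KPC ASC KO and WT mice alone both fell below it, as did Ncf4 and Hvcn1, while Cyba and Rac2 passed. The count of 4 is therefore a description and not support for a common rise. Cyba and Ncf1 had no overlap between KPC and WT mice, which held for 3.77% of genes in that direction and 5.09% in the other. In limma-voom only Cyba kept its call (0.81, adjusted p = 0.013), with Cybb at 1.21 (0.0709), Ncf1 at 1.98 (0.104) and Rac2 at 1.46 (0.165); that tool called 1552 genes in all, 486 of them higher. For KPC ASC KO against KPC, 0 of 4 were called, where 6.73% of genes were called higher, 2.69% lower and 9.42% in either direction. None of the 6 was without overlap there, where 1.24% of genes lay higher without overlap and 1.05% lower. All 4 had an unadjusted p under 0.05 there, from 0.00542 for Rac2 to 0.0482 for Ncf1, as had 1829 of 6920 genes. In that comparison 1 of the 4 passed in DESeq2, where 810 genes did, 539 of them higher. With the minimum of 20 counts 2 of the 4 passed, where 621 genes did, 381 of them higher. Of the 4, 1 or 2 passed without KPC mouse 43, 48 or 210 or KPC ASC KO mouse 377 or 384. Genes called in all numbered 800 without mouse 43, 1068 without 48 and 784 without 210, against 652 with all mice. Mice 43, 48 and 210 were the lowest KPC mice in these genes, and 377 and 384 the highest KPC ASC KO mice. Leaving out any of them was bound to widen the fall. Between KPC ASC KO and WT, 0 of 4 were called, and the background was 0% of 6920 genes in edgeR, where 691 genes had an unadjusted p under 0.05. DESeq2 called 8 genes there, limma-voom 0. The first and second comparisons share the 7 KPC mice, so their values are not independent of each other. A change of scaling shifts all genes by nearly the same amount, and subtracting the median of all genes removes that shift. By this arithmetic, the 4 differences for KPC against WT measured from that median were almost the same with TMM and with total counts: 1.09 and 1.11 for Cybb, 0.76 and 0.79 for Cyba, 2.13 and 2.16 for Ncf1 and 1.73 and 1.81 for Rac2. For KPC ASC KO against KPC they were -0.87 and -0.78 for Cybb, -0.53 and -0.46 for Cyba, -1.12 and -0.996 for Ncf1 and -1.50 and -1.45 for Rac2. Not measured from the median, all 4 genes passed for KPC ASC KO against KPC under total counts, where 5193 genes did, 142 of them higher.

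The 7 KPC mice were far from uniform, and all 6 genes split them into the same 4 and 3. Mice 40, 89, 145 and 154 were above mice 43, 48 and 210 in all 6 genes, a pattern shown by 13.5% of the genes tested, while 10.8% showed the opposite. The order within the 4 and within the 3 differed between genes: mouse 43 was the highest of the lower 3 in Cybb, at 58.1 CPM, and the lowest of all 7 in Hvcn1, at 11.2 CPM. For Ncf4 the lower 3 stood at 7.20 to 12.0 CPM and the upper 4 at 23.6 to 37.3 CPM. B cell markers, summed over 11 genes, stood at 145 to 245 CPM in KPC ASC KO mice, at 666 to 1224 CPM in the same 4 KPC mice and 29.8 to 140 CPM in the other 3, and at 121 to 221 CPM in WT mice. The 4 KPC mice also had the highest macrophage sums of their group, 2710 to 3230 CPM over 12 genes, against 1998 to 2595 CPM in the other 3. T cell markers split the KPC mice in the same way, with sums over 7 genes of 29.7 to 50.7 CPM in KPC ASC KO, 211 to 324 CPM in the same 4 KPC mice and 21.8 to 43.5 CPM in the other 3, and 20.5 to 51.6 CPM in WT mice. Dendritic cell markers, 8 genes, summed to 31.5 to 59.1 CPM in KPC ASC KO, 189 to 252 CPM in the same 4 KPC mice and 25.8 to 60.0 CPM in the other 3, and 20.6 to 97.4 CPM in WT mice. Plasma cell markers, 3 genes, summed to 132 to 182 CPM in KPC ASC KO, 573 to 900 CPM in the same 4 KPC mice and 33.0 to 105 CPM in the other 3, and 80.8 to 139 CPM in WT mice. The split was not confined to leukocyte markers. Endothelial markers, 3 genes, summed to 96.5 to 161 CPM in the same 4 KPC mice and 28.8 to 81.0 CPM in the other 3. Duct markers, 5 genes, went the opposite way, at 398.5 to 621 CPM in the 4 and 1267 to 1571 CPM in the other 3. Acinar and fibroblast sums overlapped between the 4 and the 3. How far the 6 genes moved together differed between pairs. Within the 7 KPC mice, the root mean square difference of log2 CPM, each gene centred on its KPC mean, was 0.27 between Ncf1 and Ncf4 and 0.29 between Cybb and Ncf1. It was 0.38 between Rac2 and Hvcn1, and 1.09 between Cyba and Hvcn1, the pair farthest apart. The part of any one of these cell types in that split was not tested.

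Among the KPC ASC KO mice, 377 and 384 stood apart from 318, 335 and 388. Their macrophage sums were 3028 and 2910 CPM, in the range of the KPC mice, against 910 to 1148 CPM in the other 3 and 892 to 1195 CPM in WT mice. Their fibroblast sums over 8 genes were 3076 and 2860 CPM, against 887 to 1040 CPM in the other 3, 1557 to 2931 CPM in KPC and 786 to 1166 CPM in WT mice. Their acinar sums were 139500 and 105500 CPM, against 307900 to 390000 CPM in the other 3. The part of these tissue components in the values of the 2 mice was not tested. The same 2 mice were the highest KPC ASC KO mice in Cybb, Cyba, Ncf1 and Rac2, at 76.1 and 51.9 CPM for Cybb. In Hvcn1 they were not: mouse 377 was the lowest of the 5 at 16.7 CPM, and mouse 384 was at 27.8 CPM, below mouse 318 at 28.5 CPM. B cell sums were 161 and 245 CPM in mice 377 and 384, close to those of the other KPC ASC KO mice. In Ncf4, mouse 335, at 23.4 CPM on 6 counts, was above both. The share of all genes in which mice 377 and 384 were above the other 3 was not counted. Their order in Cybb, Cyba, Ncf1 and Rac2 therefore cannot be called particular to these genes.

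**Figure D3:**
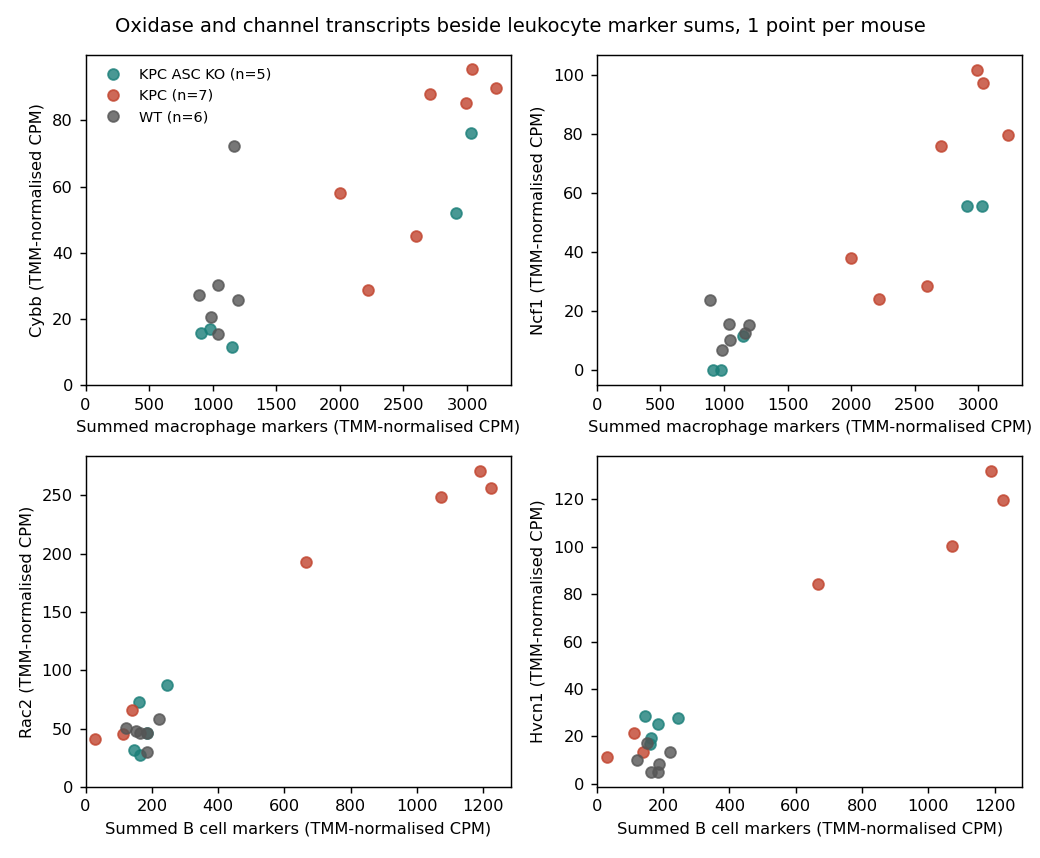
Normalised CPM of Cybb and Ncf1 against the sum of 12 macrophage markers (top) and of Rac2 and Hvcn1 against the sum of 11 B cell markers (bottom), all in normalised CPM, 1 point per mouse. KPC ASC KO mice 377 and 384 lie near the KPC mice in the top panels, and 4 KPC mice with B cell sums of 666 to 1224 CPM lie apart in the bottom panels.

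Shares within the 6 genes do not depend on scaling. Hvcn1 took 4.62% of the 6-gene counts in KPC ASC KO mouse 377 (exact 95% interval 2.13% to 8.58%) and 20.8% in mouse 318 (10.5% to 35.0%). In KPC mice it took 4.12% in mouse 43 (2.91% to 5.66%) and 17.0% in mouse 154 (15.0% to 19.1%), so these 2 libraries differed beyond counting error. In WT mice the share ran from 2.86% to 10.6% on 1 to 5 counts. Cyba moved the other way among KPC mice, with 41.5% to 45.9% in mice 43, 48 and 210 and 20.9% to 25.0% in the other 4. Rac2 took 15.2% to 23.4% of the counts in mice 43, 48 and 210 and 30.8% to 35.0% in the other 4. Ncf1 was steadier across the KPC mice, at 9.80% to 14.0%. The intervals cover counting error only.

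**Figure D4:**
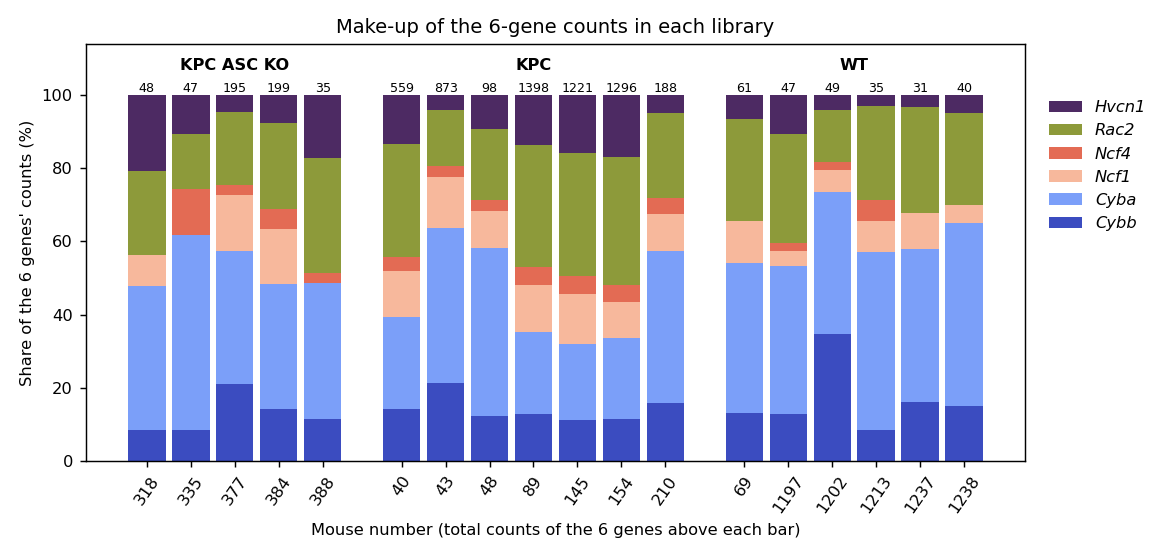
Share of the summed counts of the 6 genes (vertical axis, percent) taken by each gene in each library, grouped as KPC ASC KO, KPC and WT, with the summed count above each bar. Rac2 and Hvcn1 take more in KPC mice 40, 89, 145 and 154, and Cyba more in mice 43, 48 and 210; the WT bars and 3 of the KPC ASC KO bars rest on 31 to 61 counts.

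Markers of other leukocytes were summed in the same way. Neutrophil markers, 11 genes of the cells richest in the oxidase, summed to only 21.1 to 96.5 CPM in KPC ASC KO, 60.0 to 429 CPM in KPC and 17.0 to 101 CPM in WT mice. Among the defining ones, Camp and Mmp8 were at 0 in all KPC ASC KO libraries, and Camp, Mmp8, Elane and Ly6g at 0 in all WT libraries. The high KPC values were 429 CPM in mouse 89 and 280 CPM in mouse 40, and the other 5 KPC mice were at 60.0 to 88.1 CPM. Over all genes tested, 14.8% were called higher in KPC against WT, and 6.73% higher and 2.69% lower in KPC ASC KO against KPC. Macrophage markers rose in 7 of 10 tested genes in KPC against WT, with a median log2 fold change of 1.41, and 0 of 10 passed for KPC ASC KO against KPC (median -0.48). Of 6 tested B cell markers 1, Cd22, was called higher in KPC against WT, near the share of all genes, with a list median of 1.83. For KPC ASC KO against KPC, 0 of 6 passed (median -2.05). Of the 4 pan-leukocyte markers, 4 rose in KPC against WT and 3 fell in KPC ASC KO against KPC, Lcp1, Laptm5 and Ptprc, whereas none of the 4 oxidase genes passed there; the difference between the lists was not tested.

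With the mean log2 level of macrophage markers as a covariate, none of the 4 genes passed for KPC against WT: Cybb stood at -0.85 (adjusted p = 0.684), Cyba at 0.07 (0.985), Ncf1 at -0.54 (0.92) and Rac2 at 0.35 (0.965). Only 3 genes of the whole table passed in that fit, and the macrophage sums of the KPC and WT mice do not overlap, so the group and that level cannot be told apart. With the B cell level as covariate, Cyba (0.63, adjusted p = 0.0257), Ncf1 (1.63, 0.0424) and Rac2 (0.71, 0.0263) kept their calls and Cybb did not (0.85, 0.111). Hvcn1 stood at 1.30 in that fit and Ncf4 at 2.15, against 2.73 and 2.99 without the covariate. The B cell level was a mean over 6 markers. B cell sums were highest in KPC mice 40, 89, 145 and 154, which were also the highest KPC mice in both genes. Smaller values with this covariate therefore do not show a part of B cells, which was not tested. For KPC ASC KO against KPC the same fit gave -0.24 for Hvcn1, -0.24 for Ncf4 and -0.55 for Rac2 (adjusted p = 0.143), against -1.58, -1.01 and -1.55 without the covariate. Cybb stood at -0.61 (adjusted p = 0.326), Cyba at -0.41 (0.233) and Ncf1 at -0.61 (0.46) there, and 275 genes were called. KPC mice 40, 89, 145 and 154 were the highest of their group in all 6 genes. A fit without them was therefore bound to give lower KPC values, and it rests on 3 KPC mice. Without these mice, none of the 4 genes passed for KPC against WT: Cybb stood at 0.55 (adjusted p = 0.494), Cyba at 0.51 (0.206), Ncf1 at 1.16 (0.3) and Rac2 at 0.13 (0.836), with 752 genes called in all. In the same fit Rac2 stood at 0.14 for KPC ASC KO against KPC (adjusted p = 0.896).

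**Figure D5:**
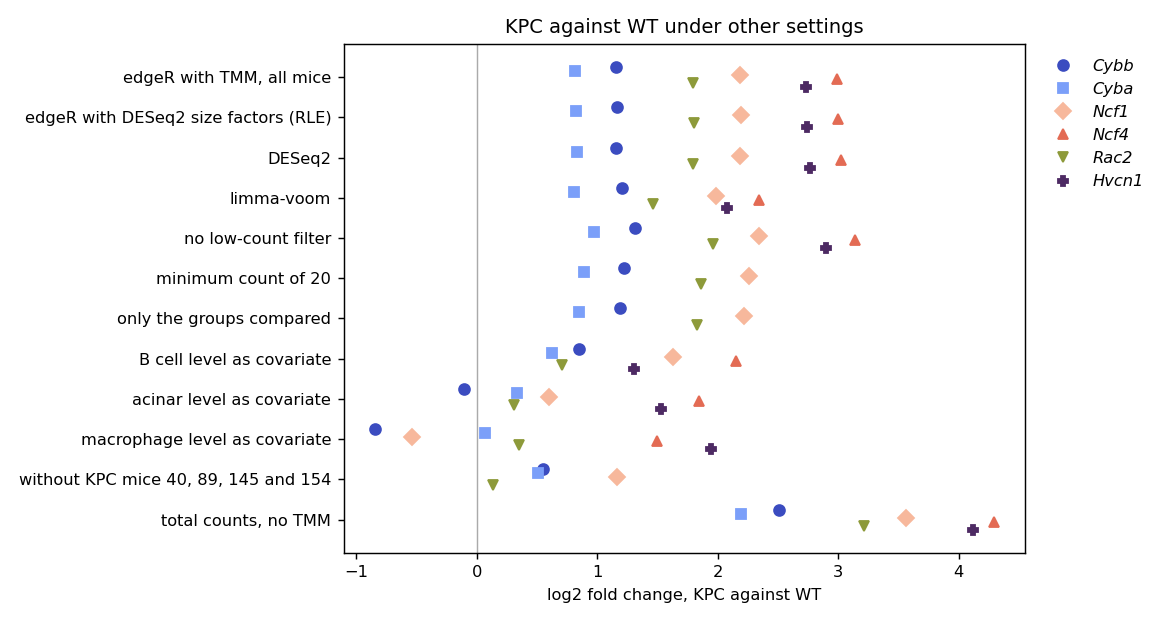
Log2 fold change of the 6 genes for KPC against WT (horizontal axis) under the reported fit (top) and 11 other settings, 1 symbol per gene. The 4 genes chosen by function keep their direction in edgeR, DESeq2 and limma-voom, all 6 values are raised by total-count scaling and Cybb and Ncf1 are below 0 with the macrophage level as covariate; Ncf4 and Hvcn1 are missing where they did not pass that setting's filter on low counts.

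The wider pathway was described with 8 lists of 81 genes, 80 of them in the table and 53 deep enough to test. In KPC against WT, 26 of the 53 rose (49.1%) and 2 fell (3.77%), beside 14.8% and 15.1% of all genes, with a median log2 fold change of 0.81 against 0.06 over all genes. In KPC ASC KO against KPC, 8 fell (15.1%) and 1 rose, beside 2.69% and 6.73% of all genes, with a median of -0.54 against -0.05. In KPC ASC KO against WT none passed. Some listed genes, among them Elmo1, Vav1, Prex1, Pik3cd and Pik3cg, were low in both KPC ASC KO and WT mice. A gene that passes the filter on low counts only through the KPC libraries favours a rise in KPC and a fall in KPC ASC KO. How many of the 53 did so was not counted, so these shares are a description and not support for an excess. The rises, falls and adjusted p-values of single listed genes given below carry the same limit.

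All 6 tested receptors and adaptors upstream of the oxidase rose in KPC against WT, beside 14.8% of all genes. Tyrobp, the signalling adaptor of many myeloid receptors, averaged 130 ± 86.5 CPM in KPC ASC KO (SD, n = 5), 198 ± 41.1 CPM in KPC (SD, n = 7) and 72.0 ± 11.3 CPM in WT mice (SD, n = 6), and rose in KPC against WT by 1.45 (SE 0.29, adjusted p = 0.00115). Fcgr3, an activating Fc receptor, rose by 1.76 (SE 0.41, adjusted p = 0.00317), its chain Fcer1g by 1.15 (SE 0.31, adjusted p = 0.00892) and the leukocyte integrin chain Itgb2 by 1.52 (SE 0.45, adjusted p = 0.0152). Itgb2 was the only one of the 6 to fall in KPC ASC KO against KPC (-1.51, SE 0.44, adjusted p = 0.035). Over all genes, 2.69% fell there. The formyl peptide receptors Fpr1 and Fpr2, which trigger the oxidase in neutrophils, were too low to test, with 1 and 0 counts in KPC ASC KO, 12 and 16 in KPC and 0 and 0 in WT libraries.

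Of 6 tested regulators of Rac, 4 rose in KPC against WT, beside 14.8% of all genes. Of those 4, 3 fell in KPC ASC KO against KPC, beside 2.69% of all genes. Vav1, Prex1 and Elmo1 were low in both KPC ASC KO and WT mice, so their values are a description. Vav1, an exchange factor for Rac in blood cells, averaged 9.88 ± 7.73 CPM in KPC ASC KO (SD, n = 5), 32.2 ± 15.1 CPM in KPC (SD, n = 7) and 10.2 ± 5.57 CPM in WT mice (SD, n = 6). It rose by 1.66 (SE 0.47, adjusted p = 0.0109) in KPC against WT and fell by 1.56 (SE 0.44, adjusted p = 0.0303) in KPC ASC KO against KPC. Prex1, another exchange factor, rose by 1.90 (SE 0.48, adjusted p = 0.0054) and fell by 1.48 (SE 0.43, adjusted p = 0.0343), and Elmo1, a partner of the Dock exchange factors, rose by 2.60 (SE 0.58, adjusted p = 0.00233) and fell by 1.60 (SE 0.47, adjusted p = 0.0348). Dock2, which activates Rac in lymphocytes and neutrophils, rose by 1.97 in KPC against WT (SE 0.55, adjusted p = 0.0108).

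Among 9 tested kinases and lipid enzymes that act on the oxidase, 6 rose and 1 fell in KPC against WT. Over all genes, 14.8% rose and 15.1% fell there. In KPC ASC KO against KPC, 3 fell and 1 rose, beside 2.69% and 6.73% of all genes. Pik3cd, Pik3r5 and Pik3cg were low in both KPC ASC KO and WT mice, so their values are a description. Pik3cd, a leukocyte phosphoinositide 3-kinase catalytic subunit, averaged 6.37 ± 4.98 CPM in KPC ASC KO (SD, n = 5), 38.2 ± 17.7 CPM in KPC (SD, n = 7) and 9.52 ± 3.68 CPM in WT mice (SD, n = 6). It rose by 1.96 (SE 0.47, adjusted p = 0.00381) in KPC against WT and fell by 2.35 (SE 0.48, adjusted p = 0.00632) in KPC ASC KO against KPC. The regulatory subunit Pik3r5 rose by 1.87 (SE 0.47, adjusted p = 0.00522) in KPC against WT. The catalytic subunit Pik3cg rose by 1.81 (SE 0.43, adjusted p = 0.00378) and fell by 1.43 (SE 0.39, adjusted p = 0.0251). Prkcb, a protein kinase C that phosphorylates the organiser, rose by 1.97 (SE 0.56, adjusted p = 0.0134) and fell by 1.77 (SE 0.54, adjusted p = 0.0459). Akt1 moved the other way, lower in KPC than in WT at -0.78 (SE 0.15, adjusted p = 0.00093) and higher in KPC ASC KO than in KPC at 0.61 (SE 0.16, adjusted p = 0.0196).

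Of 9 tested transcription factors known to act on oxidase genes, 5 rose in KPC against WT, beside 14.8% of all genes. Spi1, which encodes PU.1, averaged 25.4 ± 19.1 CPM in KPC ASC KO (SD, n = 5), 46.4 ± 17.4 CPM in KPC (SD, n = 7) and 14.4 ± 4.01 CPM in WT mice (SD, n = 6), and rose in KPC against WT by 1.72 (SE 0.41, adjusted p = 0.00334). Irf8 rose by 2.07 (SE 0.55, adjusted p = 0.0101), Runx1 by 1.79 (SE 0.44, adjusted p = 0.00417) and Elf1 by 1.15 (SE 0.32, adjusted p = 0.0103). Irf8 was the one member of the list that fell in KPC ASC KO against KPC (-1.79, SE 0.54, adjusted p = 0.0479). Over all genes, 2.69% fell there.

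Over all genes, 14.8% rose and 15.1% fell in KPC against WT. Of 9 tested subunits of the vesicular proton pump and ion transporters, 2 rose there, with a list median of 0.11. They were Atp6v1a (0.85, SE 0.28, adjusted p = 0.023) and Tcirg1 (0.79, SE 0.28, adjusted p = 0.0336). Of 8 tested superoxide and peroxide enzymes, the extracellular superoxide dismutase Sod3 rose by 1.33 (SE 0.36, adjusted p = 0.0072) and the mitochondrial Sod2 fell by 0.96 (SE 0.21, adjusted p = 0.00193), with a list median of -0.14. Mpo, the neutrophil peroxidase that uses the oxidase's product, had 1 count in KPC ASC KO, 9 in KPC and 0 in WT libraries. Of the other NADPH oxidases, Duox2 and its maturation factor Duoxa2, both of epithelia, could be tested and did not pass in any comparison, with list medians of 0.77 for KPC against WT and 1.42 for KPC ASC KO against WT. Duox2 averaged 29.1 ± 7.39 CPM in KPC ASC KO (SD, n = 5), 22.2 ± 31.3 CPM in KPC (SD, n = 7) and 14.7 ± 19.0 CPM in WT mice (SD, n = 6). Nox1 had 0, 3 and 1 counts and Nox4 8, 104 and 3 counts in KPC ASC KO, KPC and WT libraries, and neither was tested.

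The genes with the most similar patterns were sought over all 18 mice by the root mean square difference between log2 CPM profiles, each centred on its own mean, among 6920 genes. For Rac2 they were Limd2 (0.33), Cd52 (0.41) and the leukocyte membrane protein Laptm5 (0.41), against a median of 1.12 over all genes. For Hvcn1 they were Stk17b (0.48), Satb1 (0.52) and the MHC class I gene H2-Q7 (0.58), against a median of 1.33. For Ncf4 they were Selplg, the selectin ligand of leukocytes (0.67), Prkcb (0.70) and Snx20 (0.70), against 1.43. For Ncf1 they were Cnn2 (0.70), the B cell adaptor Blnk (0.72) and Wipf1 (0.77), against 1.60. For Cybb they were Mta2 (0.40), Slc44a2 (0.41) and Hivep2 (0.44), against 1.04, and for Cyba Nras (0.25), Arl6ip1 (0.26) and the lysosomal protease Ctsc (0.27), against 0.74. No oxidase gene was among the 3 nearest of another, and low counts add noise to the distances of Ncf1 and Ncf4.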

How the data were processed

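Poly(A)-primed RNA libraries from 18 pancreas samples carried, per the labels, a 10 bp tag for each molecule (UMI, unique molecular identifier) beside a sample index of 8 bp. The deposited table, per the file headers and values, holds whole-number UMI counts for 25651 genes, not normalised. Per the submitters' processing notes, the authors used limma 3.50.0 and edgeR 3.36.0 in R 4.1.2 on mm10 (GRCm38). How reads were aligned, collapsed by UMI, annotated and assigned by strand is not given in the sources used here.

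Groups come from the genotype in the labels. Counts were fitted here with edgeR 4.0.16 in R 4.3.3: filterByExpr (minimum count 10, 6920 genes kept), TMM scaling and a robust quasi-likelihood F test over all 18 mice, with Benjamini-Hochberg adjustment over 6920 genes and calls at an adjusted p under 0.05. The SE is the log2 fold change divided by the square root of F. All 6 genes passed the filter. The fit was tested on simulated data. Alternatives used limma 3.58.1, DESeq2 1.42.0, other scaling, filters, covariates and left-out mice. Log2 CPM used a prior count of 2. No 2 libraries of a group agreed within sampling noise: chi-square per degree of freedom was at least 2.35. A limit for 0 counts is 3 counts of that library. Intervals and limits cover counting error only. P-values set the difference between groups against the spread between mice, which was estimated over all 18 mice with sharing between genes.

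Named genes are the 6, Pycard, Cybc1 and Rac1, up to 4 called members of each pathway list by smallest p, and the 3 nearest genes by pattern. Duox2, Duoxa2, single cell type markers and genes too low to test are named outside this rule, after their values were seen. A gene under the rule is not reported here. The genes and lists were chosen with earlier results of these data known. Start sequences and positions are from RefSeq (GRCm38.p6), overlaps from GENCODE M21 on the same build.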

Additional observations from a re-analysis of the deposited data

Results flagged for a closer look

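Of 18 combinations of gene and group, 1 held a mouse far from the others of its group: Cybb in WT mouse 1202 stood at 72.1 CPM on 17 counts, above the other 5 WT mice at 15.5 to 30.3 CPM. The gap was 0.738 of the group's range, above Dixon's 95% critical value for 6 mice. Chance alone gives about 1 in 20 such groups. The same mouse had the lowest Rac2 value of the WT group, 29.7 CPM, and a macrophage sum of 1166 CPM within the WT range of 892 to 1195 CPM. Without WT mouse 1202, Cybb differed between KPC and WT by a log2 fold change of 1.56 (adjusted p = 0.0126 in edgeR).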

How the results depend on the processing

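The 4 calls for KPC against WT kept their direction and call in edgeR with DESeq2 size factors, DESeq2, the minimum count of 20 and fits on the compared groups only. All of these are refits of the same mice. Those of Cybb and Ncf1 remain a description, as both passed the main filter on low counts only through the KPC libraries. Without a low-count filter Cybb lost its call (1.31, adjusted p = 0.0643), with 3 of the 4 left. In limma-voom 1 of the 4 was called, and with the macrophage level, the acinar level or without KPC mice 40, 89, 145 and 154 none was (0). These mice were the highest KPC mice in all 6 genes, so leaving them out was bound to lower the KPC values. Genes called in KPC against WT numbered 2070, and 5684 under total counts (5508 higher), 3 with the macrophage level, 0 with the acinar level and 752 without those 4 mice. For KPC ASC KO against KPC, 0 members and 652 genes were called, against 4 and 5193 (142 higher) under total counts, 2 members at the minimum count of 20 and 1 in DESeq2. Genes called there numbered 192 with the compared groups only, 275 with the B cell level, 6 with the macrophage level, 0 with the acinar level and 1 without those 4 mice. For KPC ASC KO against WT, where 0 were called, there was 1 gene under total counts, 12 without a filter, 4 at the minimum count of 20, 8 in DESeq2, 8 with the compared groups only, 12 with the B cell level and 3 with the acinar level.

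Leaving out 1 mouse at a time gave 1706 to 2325 genes and 3 to 4 members for KPC against WT, 157 to 1068 genes and 0 to 2 members for KPC ASC KO against KPC, and 0 to 1 gene for KPC ASC KO against WT. The lowest count, 157, came without KPC ASC KO mouse 335, and the highest, 1068, without KPC mouse 48.

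Directions turned with the macrophage level as covariate for KPC against WT (Cybb -0.85, Ncf1 -0.54) and for KPC ASC KO against WT (Cybb -1.16, Cyba -0.21, Ncf1 -1.10, Rac2 -0.63). They turned with the acinar level for Cybb in KPC against WT (-0.10), for Cybb (0.09) and Ncf1 (0.077) in KPC ASC KO against KPC, and for Cybb (-0.013) and Rac2 (-0.019) in KPC ASC KO against WT. Without KPC mice 40, 89, 145 and 154, Rac2 stood at 0.14 for KPC ASC KO against KPC. For KPC ASC KO against WT, leaving out 1 mouse gave Cybb -0.293 (without KPC ASC KO mouse 377) to 0.636 and Rac2 -0.024 (without mouse 384) to 0.374. The macrophage and acinar levels move with the groups, and the cause of these turns was not tested.

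Ncf4 and Hvcn1 have no value for KPC against WT where they missed the low-count filter: the minimum of 20, the compared groups only and the fit without 4 KPC mice. Ncf4 also has none without KPC mouse 40, 89, 145 or 154, each left out alone. Between KPC ASC KO and WT, Cybb, Ncf1, Ncf4 and Hvcn1 have no value with the compared groups only. No paired analysis was possible because the groups share no mouse numbers. Depth limits Ncf1, Ncf4 and Hvcn1 in WT mice, with 20, 4 and 15 counts in all.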
